A study of Homo sapiens with 10 samples.

Results

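The genes described here are OGG1, MUTYH and NUDT1, which act on 8-oxoguanine, together with TADA3, CAMK1 and TOE1, whose exons overlap those of OGG1 or MUTYH. They were taken by name and are 6 of the 59453 genes in the count tables. The study used HAP1, an established human line in which most chromosomes are present in a single copy and which goes back to a chronic myeloid leukaemia line. RNA was sequenced from wild-type clones (WT), from clones without MUTYH (MUTYH-/) or without OGG1 (OGG1-/), and from double-knockout clones (DKO) without either. Each genotype had 2 clones, which were clones 2 and 11 for WT, 7 and 8 for MUTYH-/, 1 and 22 for OGG1-/ and 4 and 14 for DKO. WT clones 2 and 11 were also sequenced 24 h after treatment with 100 µM H2O2, which gave 10 libraries in all. All cells carried the HAP1 background, and the knockouts were made with CRISPR-Cas9, those of OGG1 by frameshifting deletions. Both DKO clones were made in an OGG1-/ clone whose product number matches that of clone 22, and they carry its OGG1 deletion. The study's other OGG1-/ clone has a deletion of another length. It is taken here to be clone 1, which its product number does not show. Neither length is a multiple of 3 bases. Every knockout group is therefore a pair of clones, and the deletions of the 4 clones without OGG1 are not independent of each other.

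8-Oxoguanine (OG) is a common product of guanine oxidation that can pair with adenine. OGG1 is the DNA glycosylase that excises OG opposite cytosine, and MUTYH is the glycosylase that removes adenine placed opposite OG, so that the lesion can be repaired in a second round. NUDT1, also called MTH1, hydrolyses oxidised purine nucleotides in the pool before a polymerase can use them. TADA3 is an adaptor subunit of the SAGA and ATAC histone acetyltransferase complexes, CAMK1 is a calcium/calmodulin-dependent protein kinase, and TOE1 is a 3′ exonuclease that trims small nuclear RNAs.

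The guide RNA used for OGG1 is shown because it fixes where in the gene the knockout lies relative to the reads that were counted. Its target is written 5′ to 3′ with the protospacer-adjacent motif in capitals.
OGG1 guide target: gtacgatgccccatgcgcctGGG
The 20 bases before the motif matched GRCh38 at 1 place, chr3:9750311-9750330 on the minus strand, which is in exon 1 of OGG1 and within the coding sequence of 9 of its 12 protein-coding transcripts. The expected cut lies after 27 coding bases, which is 9 of the 345 codons of the main transcript. CAMK1 begins 7017 bases and TADA3 29637 bases beyond the target, so the overlaps of OGG1 with these genes lie elsewhere in OGG1. A count per gene sums reads over all exons, so a short deletion in exon 1 does not by itself remove OGG1 reads. The OGG1 count therefore checks neither the deletion nor the protein. The study measured the OGG1 and MUTYH proteins by targeted mass spectrometry and reports the knockouts as verified in every clone. The guide and deletions in MUTYH were not analysed here.

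By GENCODE v44 on GRCh38, OGG1 occupies 9749944 to 9788219 of the plus strand of chromosome 3, and its exons cover 8733 bases over all transcripts. Of these, 2175 bases (24.9%) were shared with CAMK1 and 356 bases (4.08%) with TADA3, both on the minus strand. CAMK1 (9757347 to 9769992) lies within OGG1, and 80.1% of its 2715 exonic bases were also exonic in OGG1, which left 540 bases of its own. TADA3 (9779967 to 9793011) shared 13.7% of its 4127 exonic bases with other genes. MUTYH occupies 45329163 to 45340893 of the minus strand of chromosome 1, and TOE1 (45340052 to 45343973) runs the other way from a start 841 bases inside it. Of the 5811 exonic bases of MUTYH, 8.45% were shared with TOE1 and 31.6% with a readthrough gene on its own strand, and TOE1 shared 24.7% of its 2358 exonic bases. NUDT1 (chromosome 7, 2242226 to 2251146, plus strand) shared none of its 2089 exonic bases, although the start of MRM2 lies only 21 bases away on the other strand. The strand setting of the counting is not stated in the sources used here, so reads of opposite-strand genes in shared exons could not be told apart.

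Total counts lay between 22225091 and 22674964 in the 10 libraries, and the TMM normalization factors between 0.967 and 1.01. Of 12 haematopoietic markers, HBB, HBG1 and MPO were at 0 in every library and 10 were below 1 CPM (the TMM-normalized count scaled to library size) in every library. The summed level of all 12 ranged from 3.12 to 19.1 CPM, most of it KIT. In the genotype fits, 3 of the 12 passed the filter on low counts. KIT, a stem cell factor receptor, met the study's criterion for a change, given with the tests, as lower in OGG1-/ (log2 fold change -2.05 ± 0.52). CD34, a progenitor surface marker, met it as higher in OGG1-/ (2.16 ± 0.64) and in DKO (2.41 ± 0.63). CD34 had only 3 and 4 counts in WT, against 9 and 23 in OGG1-/ and 15 and 23 in DKO. The criterion was met by 1.67% of all genes in OGG1-/ and 1.77% in DKO. In both comparisons, 0 genes had an adjusted P within 0.05. Whether these markers bear on the genes below was not tested. After removal of the genotype means, the first principal component held 49.9% of the variance of the untreated libraries. With 2 clones a genotype, this centring puts 1 clone of each genotype on either side of any component, so only which clones fall together comes from the data. WT clone 2, MUTYH-/ clone 8, OGG1-/ clone 22 and DKO clone 14 are called set A below, and WT clone 11, MUTYH-/ clone 7, OGG1-/ clone 1 and DKO clone 4 set B. The labels give no reason for this grouping.

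Levels per kilobase of exon put the 6 genes on 1 scale. The length used is that of all exons over all annotated transcripts, 8733 bases for OGG1 and 2089 for NUDT1. It can exceed the length of the transcripts that are expressed, so levels may come out too low, to a different degree in each gene. In WT, the mean level was 15.9 ± 1.34 CPM per kb for TADA3, 11.9 ± 1.95 for TOE1, 10.6 ± 1.09 for NUDT1, 1.45 ± 0.071 for OGG1, 0.740 ± 0.087 for MUTYH and 0.0980 ± 0.023 for CAMK1 (SD, n = 2). TOE1 and NUDT1, neighbours in this order, differed by less than their spread, while NUDT1 lay above OGG1 by far more than the spread of either. On this scale both glycosylase genes were thus below the sanitising enzyme NUDT1 and the overlapping genes TADA3 and TOE1. Without division by length, the WT means were 12.6 CPM for OGG1 and 4.30 CPM for MUTYH. Those of NUDT1, TOE1 and TADA3 were 22.2, 28.2 and 65.6 CPM, so the order was kept but OGG1 lay closer to NUDT1. When only exon not shared with any other gene was used as length, the order was kept, with 18.4 for TADA3, 15.9 for TOE1, 10.6 for NUDT1, 2.04 for OGG1, 1.23 for MUTYH and 0.493 for CAMK1.

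Over the 10 libraries, TADA3 varied least, with a coefficient of variation of 7.43% against 2.56% from counting alone. TOE1 (20.8%) and NUDT1 (19.1%) varied by several times their counting error of 4.05% and 4.47%. MUTYH varied by 21.5%, of which counting alone gives 10.5%. OGG1 varied by 34.9%, against 6.28% from counting, with an 11.9-fold range. CAMK1, with 63 reads in all libraries together, varied by 83.2% against 39.8%, so that its values are close to the limit of this depth.

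**Figure D1:**
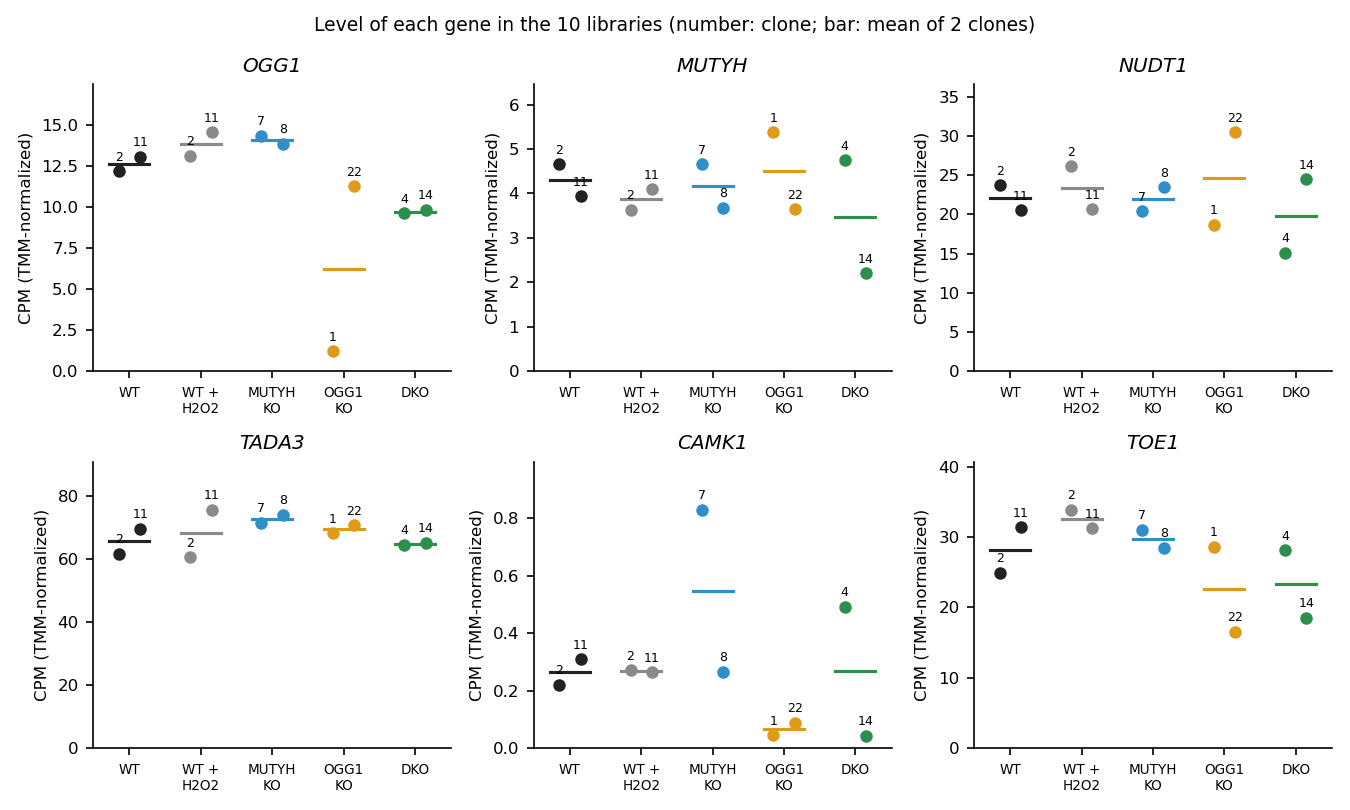
TMM-normalized CPM (y axes, from 0) of the 6 genes in every library, grouped by genotype and treatment on the x axes. Points are libraries labelled by clone and bars are means of 2 clones. OGG1 was at 1.22 CPM in OGG1-/ clone 1 and between 9.63 and 14.6 CPM in the other libraries.

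OGG1, the glycosylase for OG itself, was counted 275 times in WT clone 2 and 295 times in WT clone 11, or 12.2 and 13.1 CPM. It had 27 counts (1.22 CPM) in OGG1-/ clone 1 and 254 counts (11.3 CPM) in OGG1-/ clone 22. The DKO clones 4 and 14 had 215 and 223 counts, or 9.63 and 9.83 CPM. A low OGG1 level was therefore seen in 1 of the 4 clones that carry a deletion in the gene. As a share of the WT mean, OGG1 RNA was at 9.66% in clone 1, 89.3% in clone 22, 76.2% in DKO clone 4 and 77.8% in DKO clone 14. The 3 clones that carry the same deletion thus lay between 76.2% and 89.3% of WT. Clone 1, taken to carry the other deletion, was 10.4-fold below WT. All 4 were below both WT clones. In bulk RNA, fewer cells with a transcript and less transcript per cell cannot be told apart.

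MUTYH-/ clones 7 and 8 had 311 and 313 OGG1 counts, or 14.4 and 13.9 CPM. These lay just above WT, at 113.7% and 109.8% of its mean. The group means of OGG1 were 14.1 ± 0.343 CPM in MUTYH-/, 12.6 ± 0.617 in WT, 9.73 ± 0.146 in DKO and 6.25 ± 7.11 in OGG1-/ (SD, n = 2). In this order MUTYH-/, WT and DKO were separated by more than the SD of their 2 clones, whereas the SD of OGG1-/ exceeded its mean. Relative to the mean, the SDs of MUTYH-/, WT and DKO were below the counting error of OGG1, 6.28% per library. They are therefore too small to judge by, and the separation does not show a difference between genotypes.

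Against WT, edgeR's quasi-likelihood test over 17881 genes gave OGG1 a log2 fold change of -1.02 ± 0.76 (SE) in OGG1-/, with an adjusted P of 0.999 (Benjamini-Hochberg). The study's criterion for a call asks for a change of more than 1 on the log2 scale together with an unadjusted P no larger than 0.05. OGG1 did not meet it, and 0 of the 6 genes did, where 1.67% of all genes tested were called. On the unadjusted P alone, 0 of the 6 passed where 2.74% of all genes did, and DESeq2 also called 0. Without clone 22 the value was -3.36 ± 0.30, with an adjusted P of 0.328, and OGG1 then ranked first by P among 18702 genes, of which 1.30% were called. Without clone 1 it was -0.17 ± 0.23 (adjusted P = 0.867). The group difference thus came from clone 1, and 1 clone alone has no replicate of its own, so its spread is taken from the other groups.

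In DKO the log2 fold change of OGG1 was -0.37 ± 0.75 with an adjusted P of 1.00, and 0 of the 6 genes were called where 1.77% of all genes were (2.94% on the unadjusted P alone, again 0 of the 6). In MUTYH-/ it was 0.16 ± 0.75 with an adjusted P of 1.00, and again 0 of 6 were called, against 1.19% of all genes (1.72% on the unadjusted P alone, 0 of the 6). DESeq2 called 0 in both. Both standard errors include the wide spread between the OGG1-/ clones, since the 8 untreated libraries share 1 estimate per gene. A fit of the 4 libraries of each comparison gave -0.37 ± 0.23 for DKO and 0.15 ± 0.20 for MUTYH-/, each with an adjusted P of 1.00. The 3 knockout comparisons share the WT libraries.

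**Figure D2:**
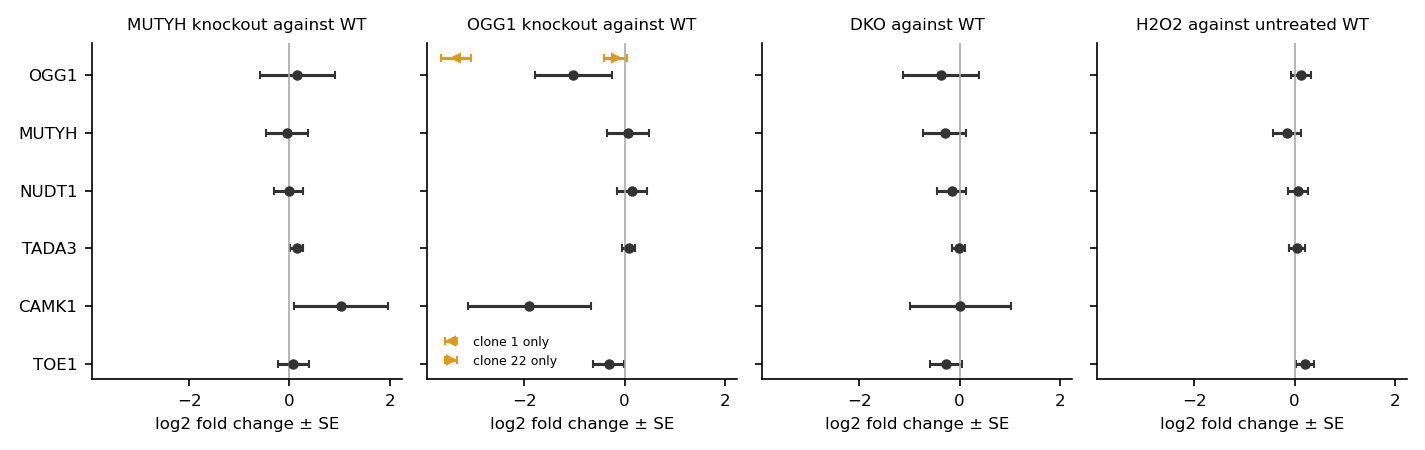
Log2 fold change of each gene against untreated WT (x axes, with SE bars) in the 4 comparisons. Black points use all libraries of the comparison and orange triangles use OGG1-/ clone 1 or clone 22 alone. The OGG1 value was -3.36 with clone 1 and -0.17 with clone 22, and CAMK1 was not tested under H2O2.

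Because OGG1, CAMK1 and TADA3 share exons, their counts were also compared within the locus. OGG1 held 16.5% and 15.8% of the summed counts of the 3 genes in WT clones 2 and 11. In OGG1-/ clone 1 it held 1.76% (95% Wilson interval 1.21 to 2.55%), and in clone 22 it held 13.7% (12.2 to 15.4%). DKO clones 4 and 14 stood at 12.9% and 13.1%, MUTYH-/ clones 7 and 8 at 16.6% and 15.8%. The interval of clone 1 lay below that of every other library, while that of clone 22 overlapped those of WT. These intervals cover counting error only.

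TADA3, the acetyltransferase adaptor that overlaps the 3′ part of OGG1, had 1390 (clone 2) and 1568 (clone 11) counts in WT, 1546 and 1667 in MUTYH-/, 1505 and 1592 in OGG1-/ and 1440 and 1476 in DKO. OGG1-/ clone 1 had 68.0 CPM of TADA3, inside the WT range of 61.7 to 69.5 CPM. The low OGG1 count of clone 1 was therefore not matched by TADA3. Its log2 fold changes were 0.14 ± 0.13 in MUTYH-/, 0.08 ± 0.13 in OGG1-/ and -0.01 ± 0.13 in DKO, with adjusted P of 1.00, 0.999 and 1.00. Both MUTYH-/ clones lay above both WT clones, at 71.4 and 73.9 CPM, but scaled by total count alone MUTYH-/ clone 7 (69.0 CPM) was below WT clone 11 (70.4 CPM).

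CAMK1, the kinase gene nested in OGG1, had 5 and 7 counts in WT, 18 and 6 in MUTYH-/, 1 and 2 in OGG1-/ and 11 and 1 in DKO. Both OGG1-/ clones were below both WT clones, but so was DKO clone 14, and DKO clone 4 was above them. Since 80.1% of its exons are also exons of OGG1, these few reads cannot be assigned to CAMK1 with confidence. The log2 fold change was -1.90 ± 1.23 in OGG1-/, 1.02 ± 0.94 in MUTYH-/ and 0.01 ± 1.01 in DKO, each with an adjusted P of at least 0.999. OGG1-/ clone 22 had a low CAMK1 count together with an OGG1 level close to WT.

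The 2 groups did not overlap for 2 of the 6 genes in MUTYH-/ (OGG1 and TADA3, both above WT) where this held for 21.5% of all genes tested, and only OGG1 remained apart when scaled by total count alone. In OGG1-/ it held for OGG1 and CAMK1, both below WT, against 25.2% of all genes, and in DKO for OGG1 alone, against 25.7%. With 2 libraries a group, such separation was common among all genes.

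**Figure D3:**
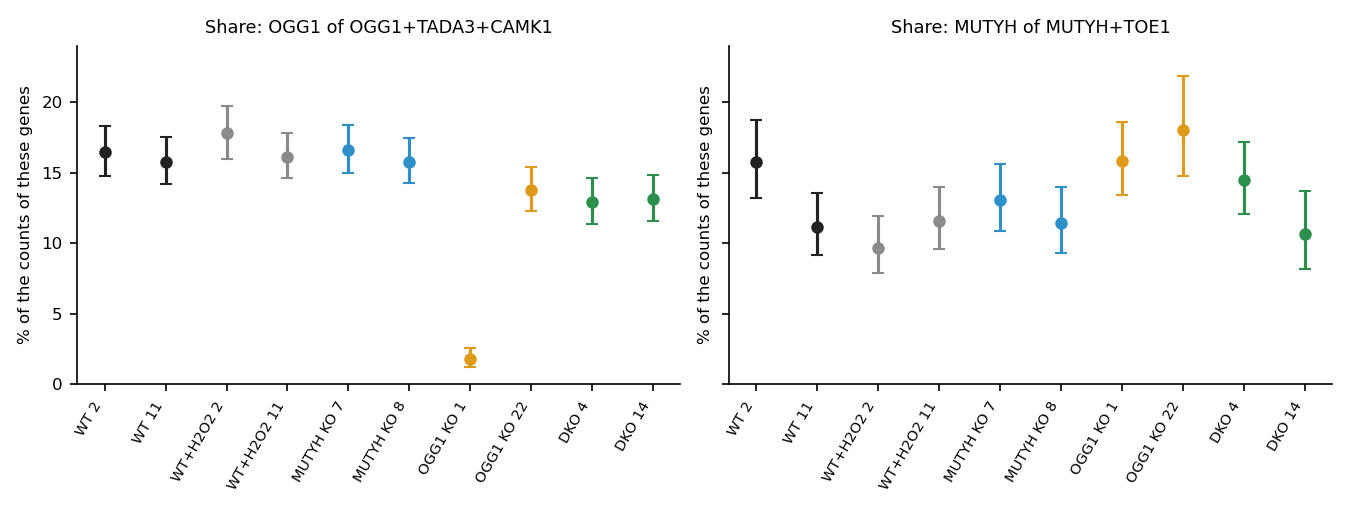
Share of the counts of overlapping genes held by OGG1 (left, of OGG1, TADA3 and CAMK1) and by MUTYH (right, of MUTYH and TOE1) in each library, in % from 0, with 95% Wilson intervals as bars. OGG1 held 1.76% in OGG1-/ clone 1, and the MUTYH share ranged from 9.69 to 18.0%.

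The genes around OGG1 were examined to see how far a low level extended in clone 1. On the scale of log2 (CPM + 0.1) relative to the WT mean, OGG1 itself was at -3.27 in clone 1. BRPF1, a scaffold of another acetyltransferase complex whose start lies 18.2 kb upstream, was at 0.24. ARPC4, an actin nucleation subunit 42.6 kb downstream, was at -0.01, and TTLL3, a tubulin glycylase gene next to it, at 0.40. Over the 13 genes within 400 kb of OGG1 with a WT mean of at least 1 CPM, the values in clone 1 ranged from -0.23 (RPUSD3) to 0.75 (PRRT3), with a median of 0.09. In clone 22 the same genes ranged from -0.32 to 0.64. The decrease in clone 1 was thus not seen in any of these 13 genes, TADA3 included. CAMK1, nested in OGG1, is not among them, since its WT mean was 0.266 CPM. On the same scale CAMK1 was at -1.33 in clone 1 and -0.95 in clone 22, from very few reads. In the fit without clone 22, 0 of 12 tested genes near OGG1 were called, where 1.30% of all genes were, so that few calls could occur among 12 genes in any case.

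**Figure D4:**
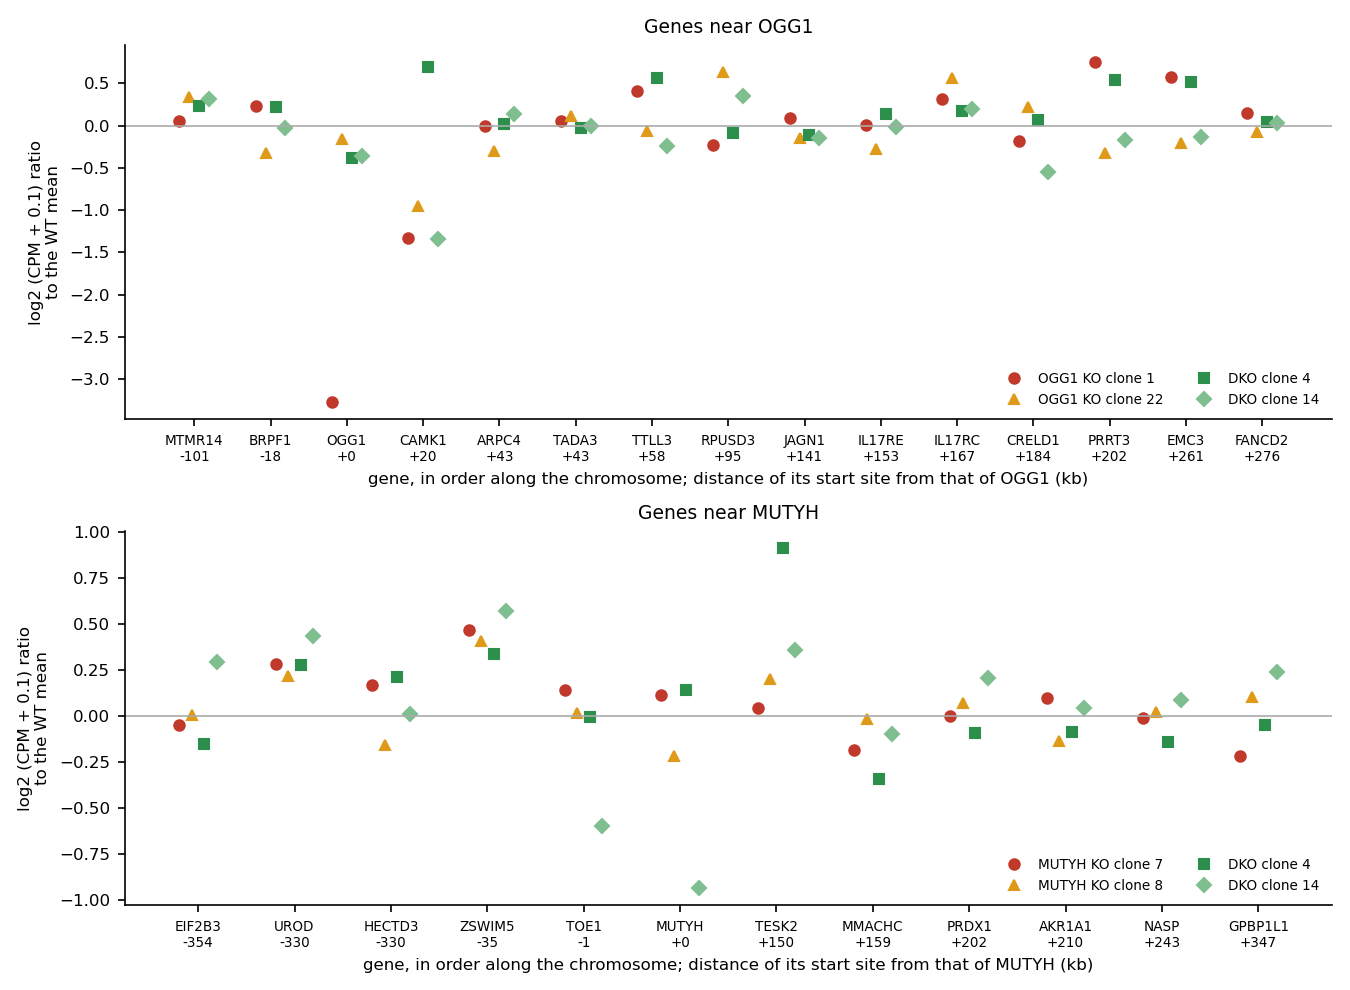
Log2 (CPM + 0.1) ratio to the WT mean (y axes) of genes near OGG1 and near MUTYH, in chromosomal order with the distance of their start sites in kb on the x axes, for the clones that lack the gene named. Genes within 400 kb and with a WT mean of at least 1 CPM are drawn, and CAMK1 although it is lower. OGG1 in OGG1-/ clone 1 (-3.27) stands below all its neighbours, and MUTYH lay between -0.93 and 0.14.

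MUTYH, the adenine glycosylase, was counted 105 times in WT clone 2 (4.66 CPM) and 89 times in WT clone 11 (3.94 CPM). The clones that lack MUTYH had 101 (clone 7) and 83 (clone 8) counts, or 4.66 and 3.68 CPM. DKO clone 4 had 106 counts (4.75 CPM) and DKO clone 14 had 50, the lowest of all libraries. In 3 of the 4 clones that lack the gene, MUTYH RNA was thus between 3.68 and 4.75 CPM, close to the WT values, and the count does not separate them from WT. OGG1-/ clone 1, with 119 counts (5.38 CPM), had the highest level of all and clone 22 had 82 counts (3.64 CPM). Group means were 4.51 ± 1.23 CPM in OGG1-/, 4.30 ± 0.505 in WT, 4.17 ± 0.696 in MUTYH-/ and 3.48 ± 1.80 in DKO (SD, n = 2), and no neighbours in this order differed beyond their spread.

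The log2 fold change of MUTYH was -0.05 ± 0.42 in MUTYH-/, 0.07 ± 0.42 in OGG1-/ and -0.30 ± 0.42 in DKO, with adjusted P of 1.00, 0.999 and 1.00. In DKO it was -0.97 without clone 4 and 0.14 without clone 14. These values describe RNA over the whole gene and say nothing of the protein.

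TOE1, the exonuclease gene that starts within MUTYH, had 562 and 709 counts in WT, 672 and 642 in MUTYH-/, 633 and 373 in OGG1-/ and 628 and 421 in DKO. The low values belonged to OGG1-/ clone 22 (16.6 CPM) and DKO clone 14 (18.6 CPM), and the other untreated libraries lay between 24.9 and 31.4 CPM. By product number clone 22 is the parent of both DKO clones, and DKO clone 4 had 28.1 CPM. The log2 fold change was 0.08 ± 0.31 in MUTYH-/, -0.32 ± 0.31 in OGG1-/ and -0.27 ± 0.31 in DKO, with adjusted P of 1.00, 0.999 and 1.00. Without OGG1-/ clone 1 it was -0.78 in OGG1-/ with an adjusted P of 0.772, short of the criterion on size.

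MUTYH held 15.7% and 11.2% of the summed MUTYH and TOE1 counts in WT clones 2 and 11. Its share was 13.1% and 11.4% in MUTYH-/, 15.8% and 18.0% in OGG1-/ and 14.4% and 10.6% in DKO. The WT clones spanned much of this range. DKO clone 14 was low in both genes, and its share was the lowest of the untreated libraries, with treated WT clone 2 lower at 9.69%. In that clone MUTYH was low while the 11 genes within 400 kb of it had a median log2 ratio to WT of 0.21 and ranged from -0.60 (TOE1) to 0.57 (ZSWIM5).

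NUDT1, which sanitises the nucleotide pool, was counted 536 times in clone 2 and 464 times in clone 11 of WT. MUTYH-/ clone 7 had 442 and clone 8 had 530, while OGG1-/ clone 1 had 414 and clone 22 had 687. DKO clone 4 had 338, the lowest, and DKO clone 14 had 556. The clones of OGG1-/ and those of DKO differed from each other by more than any of the genotype means did. Group means were 24.6 ± 8.34 CPM in OGG1-/, 22.2 ± 2.27 in WT and 19.8 ± 6.63 in DKO (SD, n = 2), neighbours in this order lay within their spread, and the MUTYH-/ mean differed from WT by far less. The log2 fold changes were -0.02 ± 0.30 in MUTYH-/, 0.15 ± 0.30 in OGG1-/ and -0.16 ± 0.30 in DKO, with adjusted P of 1.00, 0.999 and 1.00.

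The clone difference of NUDT1 followed the library sets. NUDT1 lay between 23.5 and 30.5 CPM in the 4 libraries of set A. In the 4 of set B it lay between 15.1 and 20.6 CPM, with no overlap. The component that defines the sets held 49.9% of the variance left after removal of the genotype means. How many of all genes separate in this way was not counted, so the separation is not shown to be particular to NUDT1. TOE1 lay between 16.6 and 28.5 CPM in set A and between 28.1 and 31.4 CPM in set B, which overlapped only through MUTYH-/ clone 8 and DKO clone 4. OGG1, MUTYH, TADA3 and CAMK1 overlapped between the sets as well. The sets were derived from these libraries, so this is a description without a test, and their part in the differences between groups was not tested. In the 3 genotype fits with set as a block, 0 of 6 genes were called in MUTYH-/, OGG1-/ and DKO. Of all genes, 1.78%, 2.43% and 2.44% were called. The block came from the spread within genotypes of the same libraries, so it lowers the residual spread by construction. These fits are therefore no test of the sets. The treated libraries were in no set.

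**Figure D5:**
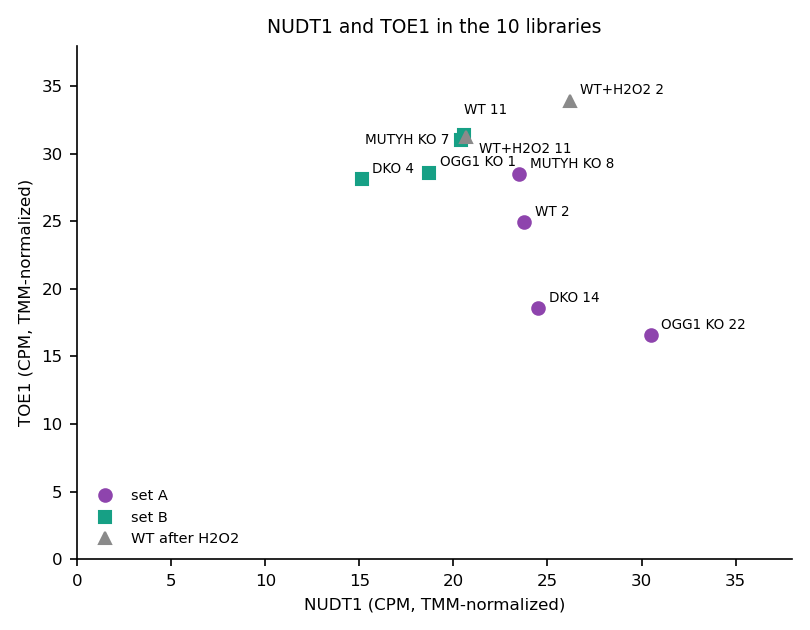
NUDT1 (x axis) against TOE1 (y axis), both in TMM-normalized CPM from 0, in the 10 libraries, with symbols for library set A, set B and the treated WT libraries. NUDT1 was above 23 CPM in all of set A and below 21 CPM in all of set B, and TOE1 was lowest in OGG1-/ clone 22.

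The genes whose log2 CPM followed each of the 6 most closely over the 10 libraries, among 18124 genes, are given as a description. All points share these libraries. The values are the highest of 18124 over 10 points, where a high r can arise without any relation, and none was tested. For NUDT1 they were COPS7A, a COP9 signalosome subunit (r = 0.986), MRPL23, a mitochondrial ribosomal protein (0.979), and AC004556.3 (0.977). For TOE1 they were FANCI, of the Fanconi anaemia pathway (r = 0.984), FOXRED2 (0.956) and NCOA5 (0.954). For OGG1 they were AL158055.1 (r = 0.933), ALDH3A1 (0.900) and AL034346.1 (0.897), and without OGG1-/ clone 1 these values were -0.57, 0.16 and 0.71. AL158055.1 had 2 counts in that clone and 100 to 265 in the others. For MUTYH they were AC007390.1 (r = 0.932), RNU6-1048P (0.930) and RNU4-52P (0.926), for TADA3 BMPR1AP2 (0.968), PEG10 (0.923) and NOG (0.913), and for CAMK1 SIRT6 (0.894), AL513534.1 (0.884) and AC009087.1 (0.856). Several of these had few reads per library: RNU6-1048P 1 to 19 counts, RNU4-52P 2 to 16, BMPR1AP2 9 to 26 and AC009087.1 2 to 10.

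Treatment of WT with H2O2 was examined in the same 2 clones, so that each gene has a ratio of treated to untreated level per clone. OGG1 had 289 counts in treated clone 2 and 331 in treated clone 11 (13.1 and 14.6 CPM), and the ratios were 1.08 and 1.11. MUTYH had 80 and 93 counts, with ratios of 0.781 and 1.04. NUDT1 had 576 and 470 counts, with ratios of 1.10 and 1.01. OGG1 was thus a little higher in both treated clones. NUDT1 was higher in clone 2 and almost unchanged in clone 11, and MUTYH was lower in clone 2 but not in clone 11. Counting error for 1 library was 6.28% for OGG1, 4.47% for NUDT1 and 10.5% for MUTYH. Each ratio compares 2 libraries, so its counting error is larger than this. TADA3 had 1331 and 1717 counts, with ratios of 0.981 and 1.09. CAMK1 had 6 counts in each, with ratios of 1.23 and 0.852. TOE1 had 746 and 710 counts, with ratios of 1.36 and 0.995, so that its difference was in clone 2.

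In edgeR's fit of the 4 WT libraries, 5 of the 6 genes passed the filter on low counts and 0 were called, where 1.75% of 16997 genes were. On the unadjusted P alone 0 passed, where 7.63% of all genes did, and DESeq2 called 0. The log2 fold changes were 0.13 ± 0.20 for OGG1, -0.16 ± 0.28 for MUTYH, 0.07 ± 0.20 for NUDT1, 0.05 ± 0.16 for TADA3 and 0.20 ± 0.18 for TOE1, with adjusted P between 0.781 and 0.956. For OGG1 alone the treated and untreated libraries did not overlap, which held for 41.4% of all genes tested, and treated clone 2 was barely above untreated clone 11 (both 13.1 CPM). Scaled by total count alone they overlapped, at 12.9 CPM in treated clone 2 and 13.2 CPM in untreated clone 11. With clone as a replicate block the values were 0.12 ± 0.17 for OGG1 (adjusted P = 0.728) and 0.21 ± 0.15 for TOE1 (adjusted P = 0.464), and 0 were called where 2.78% of all genes were. No change of OGG1, MUTYH or NUDT1 RNA was detectable 24 h after treatment at this replication.

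Partners of the 6 genes were taken as 7 lists with 85 genes, all of them in the tables. Of the 332 tests of these genes in the 4 comparisons, 0 met the criterion in edgeR and 7 (2.11%) had an unadjusted P within 0.05. Over all genes tested, 1.19 to 1.77% met the criterion and 1.72 to 7.63% had such a P, depending on the comparison. Among 8 other hydrolases of the nucleotide pool, the smallest P was that of SAMHD1, a dNTP triphosphohydrolase, at -0.56 ± 0.19 in OGG1-/ (adjusted P = 0.999). Among 9 other DNA glycosylases it was that of NEIL1, which removes oxidised pyrimidines, at -0.53 ± 0.14 under H2O2 (adjusted P = 0.638). The hydrolases had a median log2 fold change of -0.03 in OGG1-/, and the glycosylases of 0.07 under H2O2, beside 0.01 and 0.00 over all genes tested.

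Of 15 genes that act after the glycosylase, APLF, a strand-break repair factor, had the smallest P, at 1.32 ± 0.63 in DKO (adjusted P = 1.00). APLF had 9 and 37 counts in the untreated WT clones, 45 and 70 in DKO and 23 and 68 in treated WT. The WT reference of both comparisons thus differed widely between its clones. The log2 fold change of APLF under H2O2 was 0.98 ± 0.79. With clone as a replicate block it was 1.03 ± 0.36 and was called (adjusted P = 0.145), as were 2.78% of all genes. RPA2 led the 8 partners of MUTYH in mismatch repair and checkpoint signalling, at 0.42 ± 0.13 under H2O2. DR1, an ATAC subunit, led the 22 partners of TADA3 at 0.53 ± 0.14 under H2O2. CALM2, a calmodulin gene, led the CaM kinase family and its activators at 0.32 ± 0.13, and PAN2, a deadenylase subunit, led the deadenylases and exonucleases related to TOE1 at -0.36 ± 0.14, both under H2O2. Each of these 4 had an adjusted P of 0.638 under H2O2, and none reached a log2 fold change of 1.

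Among genes near the 3 repair genes, 38 of 39 were in the tables. CRELD1, an endoplasmic reticulum protein gene that starts 184 kb from OGG1, had 82 and 74 counts in untreated and 15 and 37 in treated WT clones 2 and 11. Its log2 fold change under H2O2 was -1.58 ± 0.47 (adjusted P = 0.638), and -1.63 ± 0.36 with clone as a replicate block (adjusted P = 0.0369). CCDC17, near MUTYH, had 11 and 16 counts in the WT clones and 27 and 28 in the DKO clones, a log2 fold change of 1.03 ± 0.41 (adjusted P = 1.00). Near NUDT1, LFNG had the smallest P, at -0.95 ± 0.32 under H2O2 (adjusted P = 0.638).

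MRM2, a mitochondrial rRNA methyltransferase gene that starts beside NUDT1, had only 10 to 25 counts in every library. Of its exonic bases, 90.9% are also exonic in a readthrough gene on the same strand. Among 107 protein-coding genes with over 80% of their exon shared on the same strand, 72.9% were below 0.1 CPM per kb in these libraries, against 38.9% of 10362 genes that share no exon. Among 1773 genes that share 10% to 50% with opposite-strand genes only, as TADA3, OGG1 and TOE1 do, 19.3% were below this level. Among 174 genes with over 50% shared with opposite-strand genes only, as CAMK1 has, 42.5% were. The median level of this class was 0.271 CPM per kb, against 1.02 in genes that share no exon. It was 3.59 in the class with 10% to 50% shared and 0.0025 in the class shared on the same strand. Whether the overlap lowers the CAMK1 count was not tested. MUTYH shares 31.6% on its own strand, and the part of this overlap in its low count was not tested.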

How the data were processed

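RNA-seq counts of 10 HAP1 libraries were analysed. Per the submitters' processing notes and methods, the authors checked reads with FastQC 0.11.9, aligned them to GRCh38 with HISAT2 2.2.1 and counted them per Ensembl gene with featureCounts, and the deposited values were whole-number counts that were not normalized. Strand and multi-overlap settings are not given in the sources used here. The untreated WT columns occur in both tables, are identical and were used once. No per-sample column was unmatched.

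Genes passing filterByExpr were fitted in R 4.3.3 with edgeR 4.0.16 (TMM, quasi-likelihood, legacy estimate): 8 untreated libraries by genotype (4 residual degrees of freedom) and 4 WT libraries by treatment (2). P-values are two-sided, adjusted by Benjamini-Hochberg over all genes tested, and measure the spread between clones. The call was the study's criterion. Alternatives were DESeq2 1.42.0 and its size factors, other filters, other sets of libraries, blocks, the newer edgeR estimate and leaving out each library. On simulated counts with the OGG1 knockout design over 17572 genes, 48.0% of 2-fold and 100% of 4-fold changes were called. A 2-fold change lies exactly on the size limit of the criterion, so the first share is no measure of power. The changed genes were drawn above a minimum mean level that MUTYH and CAMK1 do not reach, so the shares do not apply to these 2 genes. The shares are averages over genes drawn at random. OGG1 had an SE of 0.76 in OGG1-/, so a 4-fold change of OGG1 need not be called. The replicate numbers are clone numbers: treated and untreated WT come from the same clones, whose difference correlated at r = 0.681 over 16997 genes. Positions and exon lengths came from GENCODE v44 on GRCh38, another release than that used for counting. The guide was matched to the GRCh38 sequence.

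The members and lists were chosen with earlier results of these data known. Of each list, every gene called and the gene with the smallest P over the comparisons were named, and for each member the 3 genes of highest Pearson r. The result of 1 gene so named is not reported here. Ratios of nearby genes were limited to 400 kb, a limit set after the data were seen. Dixon's test for outliers could not be run, since it needs at least 4 libraries and every group had 2.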

Additional observations from a re-analysis of the deposited data

How the results depend on the processing

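With 2 clones a group, small changes of these genes could not be detected, and no library reaches the depth at which CAMK1 could be followed. Over the alternatives, the count of the 6 genes called stayed at 0 in each comparison, except in OGG1-/ against WT, where leaving out each library in turn gave 0 to 1, with 1 (OGG1) called without OGG1-/ clone 22. The adjusted P of the genes lay between 0.328 and 1 over all alternatives. The clone of WT entered as a replicate block changed no call of these genes under H2O2, where the OGG1 value was 0.12. No paired fit of the genotypes was possible because their clones share no number.

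The direction of small log2 fold changes turned when single libraries were left out. The ranges in MUTYH-/ were -0.24 to 0.12 for MUTYH, -0.12 to 0.085 for NUDT1, -0.015 to 1.63 for CAMK1 and -0.087 to 0.26 for TOE1. In OGG1-/ they were -0.25 to 0.33 for MUTYH, -0.24 to 0.45 for NUDT1, -0.0082 to 0.17 for TADA3 and -0.78 to 0.030 for TOE1. In DKO they were -0.97 to 0.14 for MUTYH, -0.56 to 0.14 for NUDT1, -0.11 to 0.075 for TADA3 and -2.46 to 0.87 for CAMK1. Under H2O2 they were -0.12 to 0.24 for NUDT1 and -0.12 to 0.18 for TADA3. With library set as a block, CAMK1 in DKO was at -0.15. The cause was not tested. Per kilobase of unshared exon the WT levels were 2.04 for OGG1, 1.23 for MUTYH, 18.4 for TADA3, 0.493 for CAMK1 and 15.9 for TOE1. By total count alone, OGG1 was at 13.9 CPM and TADA3 at 69.0 CPM in MUTYH-/ clone 7, and TADA3 at 65.7 CPM in DKO clone 14.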
